A study of Mus musculus with 6 samples.

Results

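The peptidylarginine deiminases are a family of 5 mouse enzymes, encoded by Padi1, Padi2, Padi3, Padi4 and Padi6. They were followed here across 6 single-colour arrays of neurosphere cultures. Each gene was taken through the probe that the platform's annotation names with its symbol alone, which gave 5 probes, 1 per gene, of 34967 gene probes on the array. The family was chosen by the values of this same comparison, in which Padi2 stood among the probes with the smallest p between treated and control arrays. The differences of the members in that comparison are therefore described and not tested.

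Peptidylarginine deiminases convert arginine residues of proteins into citrulline, a change called deimination or citrullination that removes a positive charge, and they need calcium to do so. In the brain Padi2 is the main member and is known from glial cells, where myelin basic protein and the filament proteins GFAP and vimentin are substrates. Padi4 is best known for deiminating histones in neutrophils, Padi1 and Padi3 for deiminating keratins and filaggrin in skin and hair follicles, and Padi6 from the egg and early embryo.

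The cultures were neurospheres, which are floating clusters of neural precursor cells, grown from the dorsal telencephalon of C57BL/6 mouse fetuses at embryonic day 12.5. All 6 cultures were kept without serum and with LIF at 0.15 ng/ml and the growth factors EGF and bFGF at 20 ng/ml each, which keep such cells dividing. The 3 control cultures were transfected with a 2'-O-methyl oligonucleotide called nonsense control and labelled 2' O Me-EGFP. The 3 treated cultures received a 2'-O-methyl antisense oligonucleotide against the microRNA miR-335, labelled 2' O Me-335 and called anti-miR-335 here, and a duration of 24 is given without a unit. The labels describe the replicates as independent without naming what was repeated, so all errors measure the spread between these samples. In such bulk RNA, fewer cells of a type and less RNA per cell cannot be told apart.

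The labels name miR-335 without saying which arm of its hairpin the reagent pairs with, so both mature arms are shown because they define the treatment. The seed (bases 2 to 8, the stretch that pairs with target RNAs) is in capitals, 5′ to 3′. RefSeq places them on the plus strand of assembly GRCm38.p6, the 5p arm at chr6:30741314-30741336 and the 3p arm at chr6:30741354-30741375.
mmu-miR-335-5p: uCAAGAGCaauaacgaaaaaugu
mmu-miR-335-3p: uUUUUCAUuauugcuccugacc
Of 1738 mature mouse microRNAs in the RefSeq table, each of these seeds belonged to 1, the arm itself. MicroRNA levels and seed matches in the Padi transcripts were not analysed here.

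Neural precursor markers were present on all arrays for 10 of 11 measured genes, among them Sox2, Pax6, Nes and Fabp7, while Hes1 was above background on no array. The negative control spots set that background: a probe counted as above it when its intensity exceeded their median by 3 scaled median absolute deviations, a limit of 0.492 to 0.692 on the 6 arrays. Each intensity is a multiple of its array's median, and 59.9% to 67.3% of the gene probes exceeded the limit. Levels of different probes cannot be compared with each other, because each probe binds with its own strength.

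Of the 5 members, 3 were above background on all 6 arrays (Padi2, Padi4 and Padi6) and 2 on none (Padi1 and Padi3). Padi2 separated the groups, with about double the intensity in the anti-miR-335 arrays, while the values of Padi4 and Padi6 overlapped between the groups. The Padi2 probe read 16.0, 13.3 and 14.5 on control replicates 1, 2 and 3, while the treated arrays read 25.6, 32.0 and 30.9 in the same order. Every anti-miR-335 value lay above every control value, so the groups did not overlap. The means were 29.5 ± 3.40 (SD, n = 3) and 14.6 ± 1.33 (SD, n = 3), a ratio of 2.02. Set against each other, the 9 pairs of 1 treated and 1 control array gave ratios from 1.60 to 2.40, whereas the highest control array exceeded the lowest by 1.20-fold and the highest treated array the lowest by 1.25-fold. The smallest of the 9 ratios, 1.60, was that of the replicate 1 pair, which joins the highest control value with the lowest treated value.

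**Figure D1:**
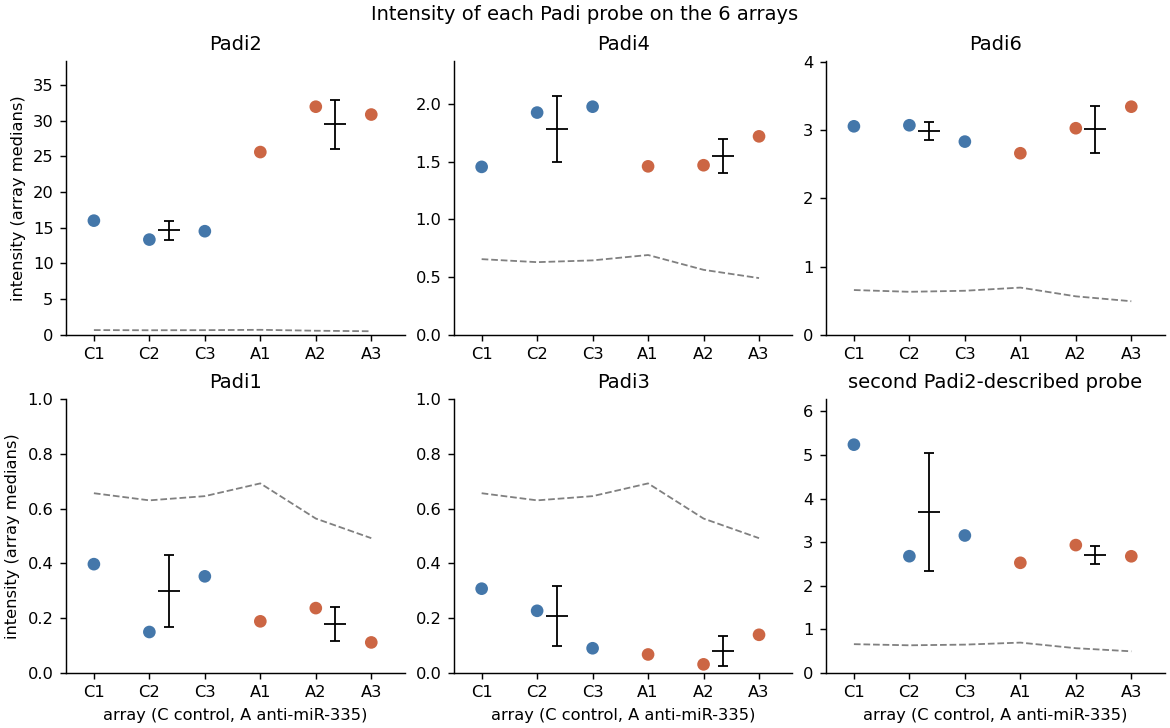
Intensity in array medians (linear axis from 0) of each Padi probe on control (C, blue) and anti-miR-335 (A, orange) replicates 1 to 3, with the group mean and SD as black bars and the background limit of each array as a dashed line. Padi2 lies between 13.3 and 16.0 on the control arrays and between 25.6 and 32.0 on the treated arrays, Padi1 and Padi3 lie under the limit on every array, and the second probe described as Padi2 is highest on control replicate 1.

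On the log2 scale the Padi2 difference was 1.01 ± 0.12 (SE), where the 5th and 95th percentiles over all 34847 probes fitted were -0.62 and 0.56 and the median was 0.01. With limma and Benjamini-Hochberg adjustment, 0 of the 34847 probes (0%) passed an adjusted p of 0.05, none of the 5 members among them, although 3162 probes (9.07%) had an unadjusted p under 0.05. The adjusted p of Padi2 was 0.109, and it is the value on which the family was picked. Values without overlap, higher in the treated arrays, were found for 7.46% of the 34204 probes with values on all arrays, and Padi2 was the member counted there. Among the 17843 probes above background on all 6 arrays, 14 (0.0785%) had a log2 difference of 1 or more, Padi2 included. Control replicate 1 stands apart in this series, with the lowest of the 6 array weights that limma estimated (0.366). Without it 1100 of 34654 probes passed (3.17%), and the Padi2 difference was 1.08 ± 0.11 (SE). Without both replicate 1 arrays 1571 of 34397 passed (4.57%), and the Padi2 difference was 1.17 ± 0.08 (SE). Padi2 is the 1 member among those that passed in both cases, but its p-values rest on the arrays on which it was chosen and are no test.

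Scanner output was used for replicate 1 of each group and shows the Padi2 spots themselves. The spot mean was 1025 scanner units over a local background of 51 on the control array and 1731 over 56 on the treated array. The software's signal strength, the spot mean over the noise level around it, was 11.6 and 18.5, and both spots carried its flag for good quality. Before any scaling, the background-subtracted intensities were 974 and 1675, a ratio of 1.72 that the median scaling brought to 1.60.

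A second probe on the array is described in the scanner output as type II peptidylarginine deiminase, from a full-length cDNA clone of neonatal thymus. It is not named in the annotation table and was not a member, and the description is its link to Padi2. This probe read 5.24, 2.68 and 3.15 on control replicates 1, 2 and 3, while the treated arrays read 2.52, 2.93 and 2.67. The groups overlapped, with control replicate 1 well above the other 5 arrays, and 1 of the 9 pairs of arrays was higher on the treated side. The log2 difference was -0.39 ± 0.22 (SE), opposite in sign to that of the Padi2 probe, and -0.10 ± 0.13 (SE) without control replicate 1. On replicate 1 the scanner gave this probe a signal strength of 3.98 on the control and 2.18 on the treated array, with flags for good quality. The unscaled spots read 318.9 and 165 after background subtraction. They are the same measurements before scaling and no separate check. The ratio of treated to control was 0.482 on replicate 1, 1.10 on replicate 2 and 0.848 on replicate 3. Which transcripts each probe binds was not tested.

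**Figure D2:**
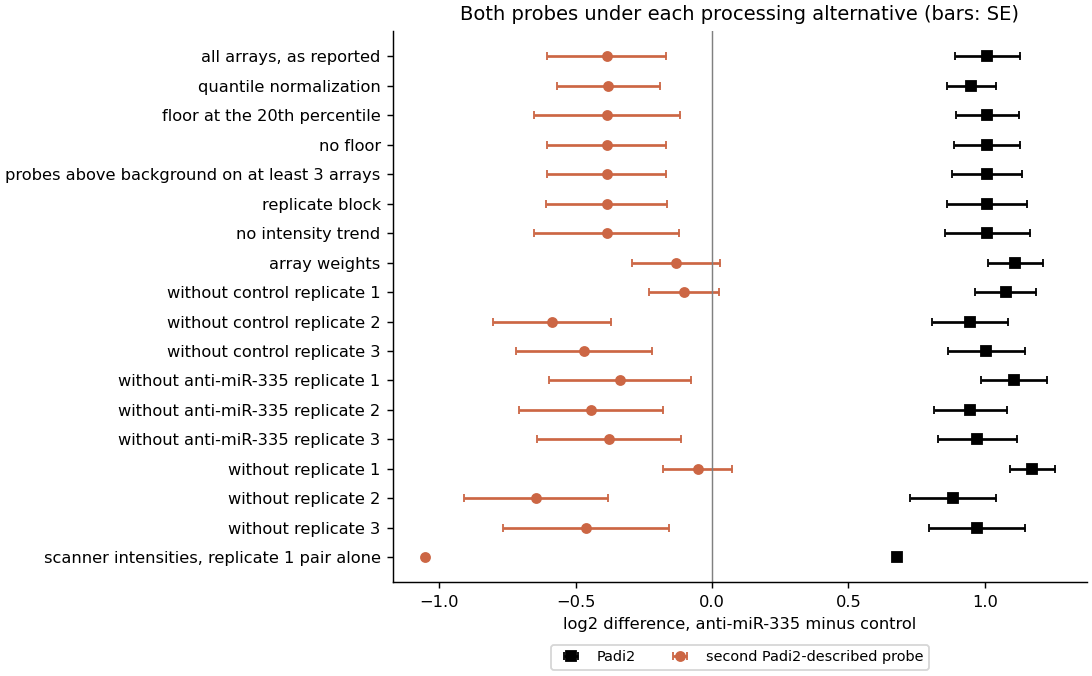
Log2 difference (anti-miR-335 minus control, x axis) of the Padi2 probe (black squares) and of the second probe described as Padi2 (orange circles) with all arrays and under each processing alternative (rows), with SE as bars and no bar where a single pair of arrays was compared. Padi2 stays between 0.68 and 1.17, and the second probe between -1.05 and -0.05, closest to 0 without both replicate 1 arrays.

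Padi4, the member best known for deiminating histones, read 1.46, 1.93 and 1.98 on control replicates 1, 2 and 3, while the treated arrays read 1.46, 1.47 and 1.72. The values overlapped, with control replicate 1 level with the lower treated arrays, and the log2 difference of -0.20 ± 0.18 (SE) was close to its error. Without control replicate 1 the difference was -0.34 ± 0.15 (SE), and the remaining controls, at 1.93 and 1.98, lay above every treated value. On replicate 1 its spots had signal strengths of 1.48 and 1.52, little above the noise, and were flagged as good. Of 8 markers of neutrophils, in which Padi4 is best known, Mpo, S100a8, S100a9, Ltf and Camp were above background on no array, Elane on 1, Csf3r on 4 and Ngp on 5. Their summed intensity was 3.15 to 3.48 in the controls and 3.21 to 3.60 in the treated arrays.

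Padi6, the member of egg and embryo, named by its older symbol Padi5 in the scanner output, read 3.06, 3.07 and 2.83 on the control replicates and 2.66, 3.03 and 3.34 on the treated replicates. The treated values spanned the control values, with means of 3.01 ± 0.342 (SD, n = 3) and 2.99 ± 0.134 (SD, n = 3). The log2 difference was 0.01 ± 0.13 (SE), and -0.00084 after quantile normalization. Of 9 oocyte markers, 7 were above background on at least 3 arrays, among them Gdf9 and Zp1 on all 6, while Oosp1 was on none and Nlrp5, which encodes a partner of PADI6 in the egg, on 1 treated array. Their summed intensity was 18.5 to 24.4 in the controls and 18.1 to 19.3 in the treated arrays. Zp1, the largest part of that sum, was lower in the treated arrays without overlap, at 7.65 against 11.4 in group means. Nlrp5 was higher without overlap, at 0.343 against 0.0574.

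Padi1 and Padi3, the skin and hair follicle members, were not well above background on any array, so no fold is given. Padi1 ranged from 0.149 to 0.397 in the controls and from 0.111 to 0.236 in the treated arrays. Padi3 ranged from 0.0894 to 0.307 and from 0.0306 to 0.139. On both replicate 1 arrays the scanner software flagged their spots as near background, with signal strengths of 0.637 to 0.883. Keratinocyte markers were largely at the same level: Krt1, Krt10, Ivl and Flg were above background on no array, and 3 of 8 were so on at least 3 arrays. The summed keratinocyte intensity was 5.66 to 6.22 in the controls and 6.62 to 7.51 in the treated arrays, without overlap, and Lor at 3.43 and 4.20 (group means) made up most of it.

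Upstream sequences of the members differed. They are shown for Padi2, whose probe separated the groups, and for Padi4, which was above background on all arrays and did not separate them. The same holds for Padi6, whose counts are given without its sequence. Each is the 250 bases before the annotated start, 5′ to 3′ on the gene's strand, from RefSeq on GRCm38.p6, where all 5 members were matched by symbol. Capitals mark the so-called GC box, spelled GGGCGG. Capitals also mark the core letters of the TATA box, spelled TATAAA. Both motifs were searched on both strands, and no matches overlapped in these windows. Padi2 lies at chr4:140906110-140906359 on the plus strand and Padi4 at chr4:140774204-140774453 on the minus strand.
Padi2: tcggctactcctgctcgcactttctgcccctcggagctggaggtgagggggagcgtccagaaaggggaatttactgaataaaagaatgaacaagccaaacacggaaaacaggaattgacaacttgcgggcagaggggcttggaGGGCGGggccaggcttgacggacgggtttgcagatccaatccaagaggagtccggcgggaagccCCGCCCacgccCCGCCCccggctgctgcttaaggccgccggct
Padi4: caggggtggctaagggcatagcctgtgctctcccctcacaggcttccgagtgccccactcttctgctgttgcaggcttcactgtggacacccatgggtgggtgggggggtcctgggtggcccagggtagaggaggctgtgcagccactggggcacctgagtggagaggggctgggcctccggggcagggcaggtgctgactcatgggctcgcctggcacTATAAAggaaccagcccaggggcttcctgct
The Padi2 window held 3 GC boxes, 17 CpG dinucleotides and no TATAAA. The Padi4 window held no GC box, 3 CpG dinucleotides and a TATAAA that begins 31 bases before the start. Padi3 and Padi6 each had 1 GC box with 3 and 1 CpG, and Padi1 had no GC box and 0 CpG. None of these held a TATAAA. Of 32851 upstream windows of this length, 32.7% held a GC box, 8.47% held 3 or more and 12.4% held a TATAAA. The median window held 6 CpG, and 76.5% of windows held fewer than that of Padi2. These matches describe letters and not bound sites, and their part in the Padi2 difference was not tested.

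The genes whose pattern over the 6 arrays was most like that of Padi2 were found by Pearson correlation of log2 intensities, over 12134 single-symbol probes above background on every array. With so few arrays, and a difference between groups behind most of each correlation, the ranking is a description. The 6 highest were Itgb5 (r = 0.999), D430019H16Rik, Dctpp1, Rbpms2, Cntf and Aqp4 (r = 0.992). Itgb5, an integrin subunit gene, read 5.17 to 5.71 in the controls and 7.07 to 7.69 in the treated arrays. The neurotrophic factor gene Cntf read 18.4 to 20.6 and 30.2 to 40.1. Aqp4, the water channel gene of astrocytes, read 9.85 to 11.5 and 15.0 to 17.9. All 6 probes shared with Padi2 that control replicate 1 was the highest control and anti-miR-335 replicate 1 the lowest treated array. A second Aqp4 probe, above background on all arrays, was also higher without overlap but lacked that order. It read 5.09, 5.23 and 5.25 on the controls and 7.23, 6.28 and 9.54 on the treated arrays. The 6 ranked probes differed in size, from 0.28 ± 0.10 (log2, SE) for Dctpp1, a nucleotide-hydrolysing enzyme gene, to 0.92 ± 0.13 for Cntf, against 1.01 for Padi2. The 3 lowest were Pfkfb4 (r = -0.999), a regulator of glycolysis, the complement receptor gene C5ar1 and Mcee, a mitochondrial epimerase gene. Mcee read 31.9 to 32.6 in the controls and 23.8 to 25.8 in the treated arrays. Other members tracked Padi2 less closely, at r = 0.18 for Padi6, -0.56 for Padi4 and -0.38 for the second probe described as Padi2 (6 arrays each).

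**Figure D3:**
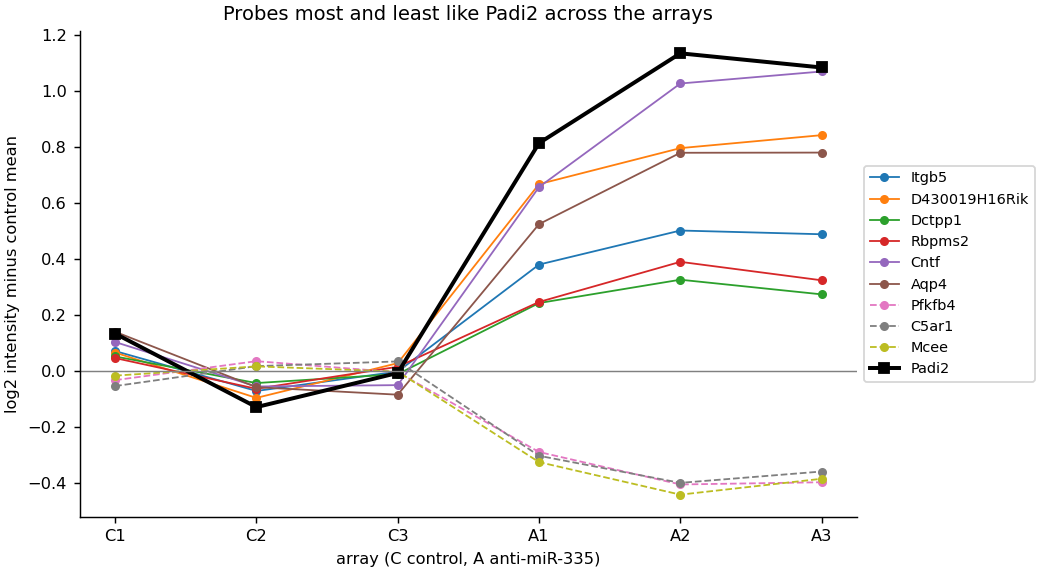
Log2 intensity minus the mean of the 3 control arrays (y axis) on each control (C) and anti-miR-335 (A) array for Padi2 (black), the 6 probes that correlated with it most highly (solid) and the 3 that correlated most negatively (dashed); lines join arrays only to guide the eye. Padi2 and Cntf reach about the same height, while Dctpp1 differs by 0.28 in its group means.

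Glial marker levels bear on the cells in which Padi2 is known. The 7 astrocyte markers were above background on all arrays, with a summed intensity of 246.6 to 250.6 in the controls and 241 to 279 in the treated arrays. Aldoc and S100b made up 85.5% of the control sum, so it says little of the others. Of the 7, 6 had a positive log2 difference, with a median of 0.17, and Aqp4 and Gja1 had values without overlap (Gja1 at 13.2 against 5.94 in group means). Of 11 oligodendrocyte lineage markers, 7 were above background on at least 3 arrays, and Mog, Mag and Mobp, genes of mature myelin, were on none. Their summed intensity was 99.3 to 135 in the controls and 99.0 to 129 in the treated arrays, and 3 of the 11 had a positive log2 difference, with a median of -0.19. Members above background went both ways, with Pdgfra at 15.9 against 7.95 and Sox10 at 3.29 against 2.55, both higher without overlap. Lower with overlap were Cspg4 (3.04 against 3.55), Cnp (75.0 against 81.4), Olig1 (15.7 against 17.4), Olig2 (1.03 against 1.24) and Mbp (0.848 against 0.965). The Olig1 probe was dim on control replicate 1 (1.93) and treated replicate 3 (1.61), but read 18.6 to 26.8 elsewhere. Olig2 was under the limit on the same arrays, at 0.515 and 0.394. Those arrays gave the lowest sums of their groups, 99.3 and 99.0, for a reason not tested. Mobp was lower without overlap, under the background limit. Microglia and macrophage markers summed to 7.91 to 8.20 in the controls and 6.42 to 6.92 in the treated arrays, without overlap. This rests on Trem2, at 3.27 against 4.85: without it, a sum taken after the values were seen, the ranges were 2.96 to 3.57 and 3.21 to 3.57. Of the 10 genes, 5 had a positive log2 difference, with a median of 0.01, and Cx3cr1 was higher without overlap, at 1.09 against 0.724. Of these 10 genes, 6 were above background on no array, among them Ptprc, Itgam and Tyrobp. Neural precursor markers summed to 335 to 383 in the controls and 380 to 411 in the treated arrays, and 9 neuron markers to 11.6 to 15.5 and 14.0 to 18.0. Of 11 precursor markers, 8 had a positive log2 difference. Hes5 (4.44 against 2.60 in group means) and Fabp7 (110 against 90.1) were higher without overlap, and none was lower without overlap. Of the 9 neuron markers, 7 were positive, and Dcx was higher without overlap, at 4.99 against 2.42. Over all probes, 7.46% were higher without overlap. The part of any of these cells in the Padi2 difference was not tested.

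All 5 members lie in one cluster on chromosome 4. Within 300 kb of any member the RefSeq table lists 25 further genes, of which 12 had a probe with that symbol alone, and 10 of these were above background on at least 3 arrays. With limma, 0 of the 12 passed an adjusted p of 0.05 (0% of all probes did). An unadjusted p under 0.05 was found for 3 of the 12, and for 9.07% of all probes. The 2 protein-coding genes that follow Padi2 were both higher in the treated arrays without overlap. Sdhb, the iron-sulphur subunit of succinate dehydrogenase, read 68.7, 65.7 and 68.4 on the controls and 81.6, 97.5 and 87.1 on the treated arrays (log2 difference 0.39 ± 0.11 SE, adjusted p = 0.438 by limma). Atp13a2, a lysosomal transport ATPase gene, read 6.61 to 8.58 and 8.72 to 10.6 (0.32 ± 0.13, adjusted p = 0.518 by limma). At the other end of the cluster, Arhgef10l, a guanine nucleotide exchange factor gene, read 11.6 to 13.9 and 14.2 to 19.9 (0.42 ± 0.13, adjusted p = 0.459 by limma). These 3 of 12 compare with 7.46% of all probes, and with 9.7% of the probes above background on all 6 arrays.

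Other neighbours had overlapping values. Rcc2, which lies between Arhgef10l and Padi6 and encodes a mitotic regulator, differed by -0.10 ± 0.11 (log2, SE), and Mfap2, a microfibril protein gene, by -0.04 ± 0.15. Necap2, an endocytosis gene, differed by 0.20 ± 0.14, Fbxo42, an F-box protein gene, by 0.19 ± 0.12, Arhgef19 by 0.17 ± 0.10 and Cplane2 by -0.06 ± 0.13. C630004L07Rik was above background on 3 arrays in all, and Spata21 and 4930515B02Rik, the latter between Padi1 and Padi2, on none. The median log2 difference of the 12 was 0.17, where that of all probes was 0.01, and every one was smaller than that of Padi2.

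**Figure D4:**
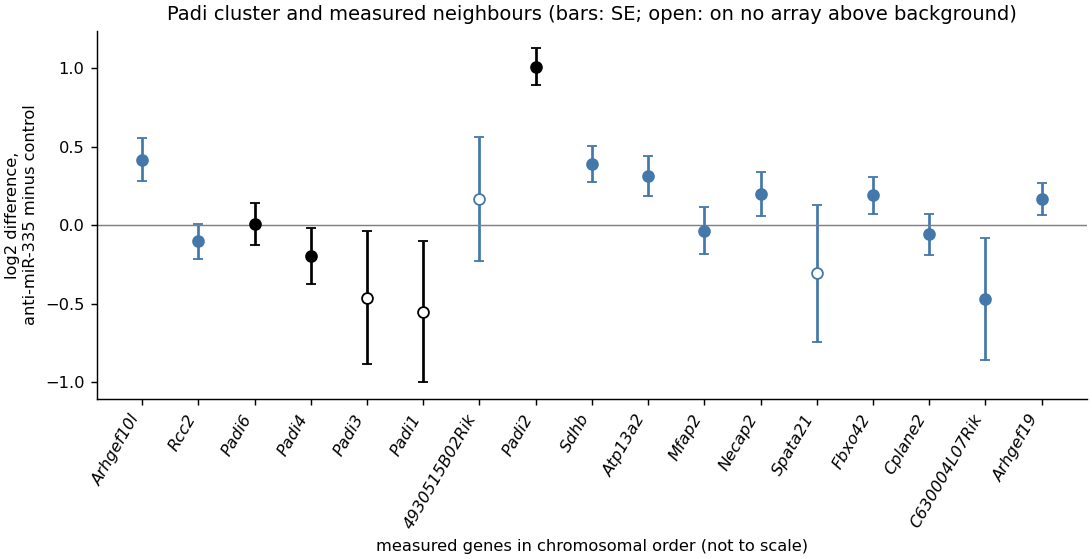
Log2 difference (anti-miR-335 minus control, y axis) with SE as bars for the Padi genes (black) and their measured neighbours (blue), in chromosomal order and not to scale, with open symbols for genes above background on no array, whose differences have no meaning as folds. Padi2 at 1.01 stands above Sdhb, Atp13a2 and Arhgef10l at 0.32 to 0.42, and the other Padi genes lie at or below 0.01.

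Genes that act beside the deiminases were read from 4 further lists. With limma, 0 of the 66 different genes in these lists and among the neighbours passed an adjusted p of 0.05, and 7 had an unadjusted p under 0.05, close to the 9.07% of all probes. Proteins reported as deiminated were on the array for 21 of 25 entries; their median log2 difference was 0.05, with 2 members higher without overlap, Hspa5 and, named after its values were seen, the transcription factor gene Elk1 (5.52 against 4.62 in group means). That is near the share of all probes, 7.46%. The myelin and filament substrates named above did not separate the groups: Vim was at 96.7 against 93.1 in group means, Gfap at 8.30 against 6.19, and Mbp at 0.848 against 0.965, near background. The smallest p belonged to Fn1, fibronectin of the extracellular matrix, which read 4.77, 3.94 and 3.82 on the controls and 3.97, 7.14 and 6.94 on the treated arrays (0.49 ± 0.21 SE, adjusted p = 0.535 by limma). Its replicate 1 pair thus went the other way. Hspa5, the chaperone of the endoplasmic reticulum, differed by 0.24 ± 0.12 (adjusted p = 0.585 by limma), with 20.0 to 21.3 in the treated arrays against 14.7 to 19.8.

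Protein arginine methyltransferases modify the same residue that deiminases convert, and all 9 were measured, with 8 above background on every array. They differed by -0.08 to 0.23 (log2) with a median of 0.16, and 7 of 9 were positive. Carm1, which methylates histone H3, read 7.72 to 8.33 in the controls and 8.77 to 9.83 in the treated arrays (0.18 ± 0.10 SE, adjusted p = 0.633 by limma) and was the 1 member without overlap. That 1 of 9 is near the share of probes higher without overlap, 7.46% of all and 9.7% of those above background on all 6 arrays. Prmt2 read 36.5 to 43.2 and 39.6 to 52.7 (0.22 ± 0.13, adjusted p = 0.653 by limma).

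Enzymes and transporters of free arginine and citrulline were on the array for 12 of 15 entries, with 6 above background on at least 3 arrays. Their median log2 difference was -0.13. Nos1, the neuronal nitric oxide synthase, which makes free citrulline, read 0.628, 0.714 and 0.9995 on the controls and 1.26, 1.11 and 1.26 on the treated arrays. Those values did not overlap (0.65 ± 0.23 SE, adjusted p = 0.481 by limma), but 1 control value was below the limit, and the other 2 Nos1 probes, both dim, differed by -0.36 and -0.08. Arg1, an arginase gene, had the other smallest p in this list (adjusted p = 0.476 by limma). It read lower in the treated arrays but was above background on no array. Without overlap, 2 of the 12 were higher, Nos1 and Nos3, where 7.46% of all probes were higher. Nos3, named after its values were seen, was like Arg1 above background on no array. Another 2 of the 12 were lower, Arg1 included, and the share of all probes lower without overlap was not counted. Slc7a1, an arginine transporter gene named after its values were seen, was among the lower. The brightest of its 4 probes read 11.7 to 13.0 in the controls and 9.33 to 10.7 in the treated arrays (-0.26 ± 0.10 SE). Genes for calcium release from stores and entry through the membrane, which bear on enzymes that need calcium, were on the array for 12 of 14 entries, and their median difference was 0.02. Stim1, the sensor of store calcium, read 1.28 to 1.73 and 1.75 to 1.99 (0.30 ± 0.17 SE, adjusted p = 0.637 by limma). The channel gene Orai3 read 11.5 to 14.7 and 11.1 to 11.9 (-0.14 ± 0.12, adjusted p = 0.754 by limma).

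**Figure D5:**
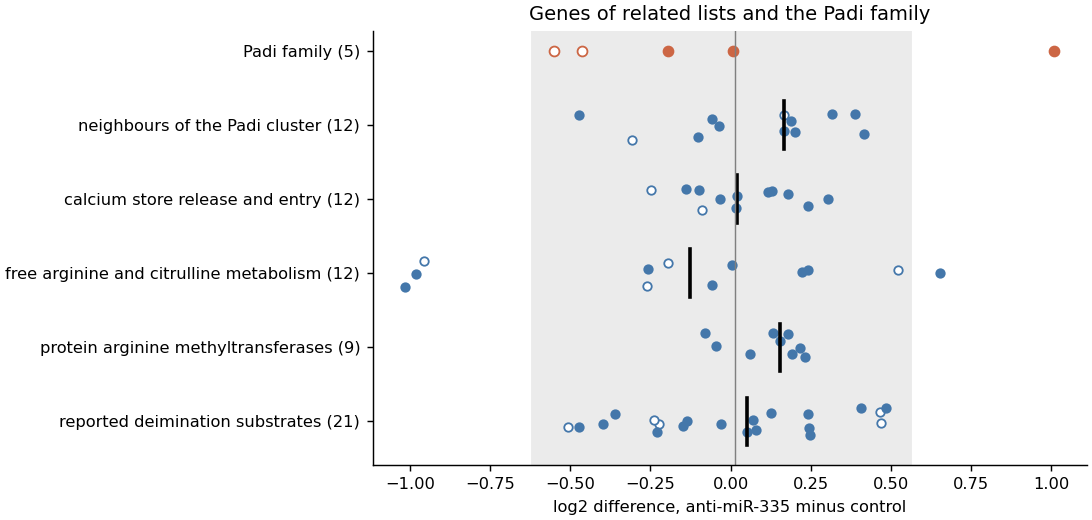
Log2 difference (anti-miR-335 minus control, x axis) of each measured gene of the related lists (blue, number of genes in brackets, list median as a black bar) and of the 5 Padi genes (orange), with open symbols for genes above background on no array. The grey band spans the 5th to 95th percentile of all probes, -0.62 to 0.56, and Padi2 at 1.01 lies to its right.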

How the data were processed

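Biotin-labelled cRNA from 2 µg of total RNA was hybridised to CodeLink mouse arrays for 18 h, per the labels' protocols. The deposited intensity values were divided by each array's median by the authors, per the labels; the software was CodeLink Expression Analysis 4.1.0.29054, per the file headers. On the 2 arrays with scanner output, all 35976 and 36032 values equalled its normalized intensity within 0.0001, and raw intensity was spot mean minus local background. Signal strength is a score deposited in the scanner output. Control spots were left out. Symbols came from the platform annotation, and sequences and neighbours from RefSeq tables of GRCm38.p6.

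Intensities under the 5th percentile of positive values, 0.163, were raised to it before log2. All 34847 probes with at least 2 values per group were fitted with limma 3.58.1 in R 4.3.3 (lmFit and trended eBayes), two-sided, with Benjamini-Hochberg adjustment over all of them and no covariate. A list gene with several probes was read from its brightest probe. The script was tested on simulated data. The number of arrays, 3 per group, limits the precision. Slide and scan batches were not tested, since headers were used for 1 array per group.

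The members and lists were chosen with earlier results of these data known. Named were all members, all measured neighbours, the 2 genes of smallest p in each other related list, and the 6 probes most and 3 least like Padi2. Marker lists were set beforehand. Single markers whose groups did not overlap, and some others, were named after their values were seen. Alternatives were quantile normalization, another floor or none, dim probes left out, a replicate block, no trend, array weights, the scanner intensities, and leaving out arrays or pairs.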

Additional observations from a re-analysis of the deposited data

How the results depend on the processing

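The log2 difference of Padi2 ranged from 0.88 to 1.17 when arrays or pairs were left out. Its sign could not turn there, because every treated value lay above every control value. Scanner values of the replicate 1 pair alone, 2 of the 6 arrays, gave 0.68. That is the same ratio as in the deposited replicate 1 values and no separate check. With a replicate block the Padi2 difference was 1.01 ± 0.15 (SE), and 0 probes passed. Between arrays of the same number, deviations from the group mean had correlations of -0.23, 0.04 and -0.26 (17843 probes). With 3 arrays per group these values cannot show whether arrays of the same number share a preparation or batch, which was not tested. After quantile normalization 1 probe passed, that of Padi2, and with array weights 474 did, Padi2 among them, which is no test of Padi2 since it was chosen on these arrays. The count of probes that passed ranged from 0 to 1571 over the left-out arrays or pairs, with 1100 without control replicate 1 and 1571 without replicate 1 of both groups. Of the related genes, 1 passed with array weights (Arhgef10l) and 0 to 3 when arrays or pairs were left out, the 3 being Gfap, Fn1 and Arhgef10l, without both replicate 1 arrays. The cause was not tested. Padi4 and Padi6 turned sign on small values: Padi4 ranged from -0.34 to -0.10 over left-out arrays and was 0.0046 on the replicate 1 scanner pair, and Padi6 ranged from -0.11 to 0.11 and was -0.20 on that pair. The second probe described as Padi2 ranged from -0.64 to -0.05 over left-out arrays and was -1.05 on that pair. Padi1 and Padi3, below background, have no usable difference under any setting.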
